A study of Mus musculus with 8 samples.

Results

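The 38 genes described here encode enzymes of 2 linked pathways of energy metabolism in the left ventricle, 19 of the tricarboxylic acid (TCA) cycle with the aminotransferases, malate dehydrogenases and malic enzymes attached to it, and 19 of branched-chain amino acid (BCAA) catabolism. They were taken by gene name from the deposited expression table, and all 38 were found in it, each as 1 row among 55679. Expression was given as FPKM, fragments scaled by transcript length and library size. The left ventricles came from male wild-type C57BL/6J mice, and every mouse carried a mini-pump under the skin for 7 days. In the control group (n = 4) the pump delivered saline, and in the ANG II group (n = 4) angiotensin II (ANG II), a blood pressure-raising peptide hormone, dosed at 1500 ng/kg/min. The control libraries and the ANG II libraries are numbered 1 to 4 below as in their labels. The study describes its libraries as biological replicates. In whole-tissue RNA, fewer cells of a type and less RNA per cell cannot be told apart.

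The TCA cycle runs in the mitochondrial matrix, where it oxidises the acetyl group that fatty acids, glucose, ketone bodies and amino acids deliver as acetyl-CoA, and it hands the electrons to the respiratory chain. Leucine, isoleucine and valine are burned in the same compartment. An aminotransferase first removes their nitrogen, the branched-chain ketoacid dehydrogenase (BCKDH) complex then commits the carbon to oxidation, and separate branches carry it to acetyl-CoA, acetoacetate or succinyl-CoA. The working heart contains many mitochondria and expresses both pathways highly, and BCKDH is switched off by a kinase and on by a phosphatase.

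Gene expression of both pathways was lower in the ANG II group. With limma on log2(FPKM + 1) and Benjamini-Hochberg adjustment over the 19364 genes tested, a gene passed when its adjusted p-value was below 0.05. Of the 19 TCA cycle members, 16 passed as lower and 1 as higher, and of the 19 BCAA members 15 passed as lower and 1 as higher. Among all genes tested, 4.91% (951) passed as lower and 28.4% (5496) as higher, a split that moved to 2530 lower and 2827 higher under median-of-ratios scaling. The median log2 fold change was -0.31 over the TCA cycle members and -0.33 over the BCAA members, beside 0.15 over all genes tested. The changes were small in size. With the additional requirement of an absolute log2 fold change above 0.5, 1 TCA cycle member and 3 BCAA members remained lower and 1 of each pathway remained higher, where 1.41% of all genes tested were lower and 14.0% higher by that criterion. The groups did not overlap, with every ANG II library below every control library, at 16 TCA cycle members and 15 BCAA members, against 5.06% of all genes tested. Every ANG II library stood above every control library at 1 member of each pathway, against 28.7% of all genes tested.

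**Figure D1:**
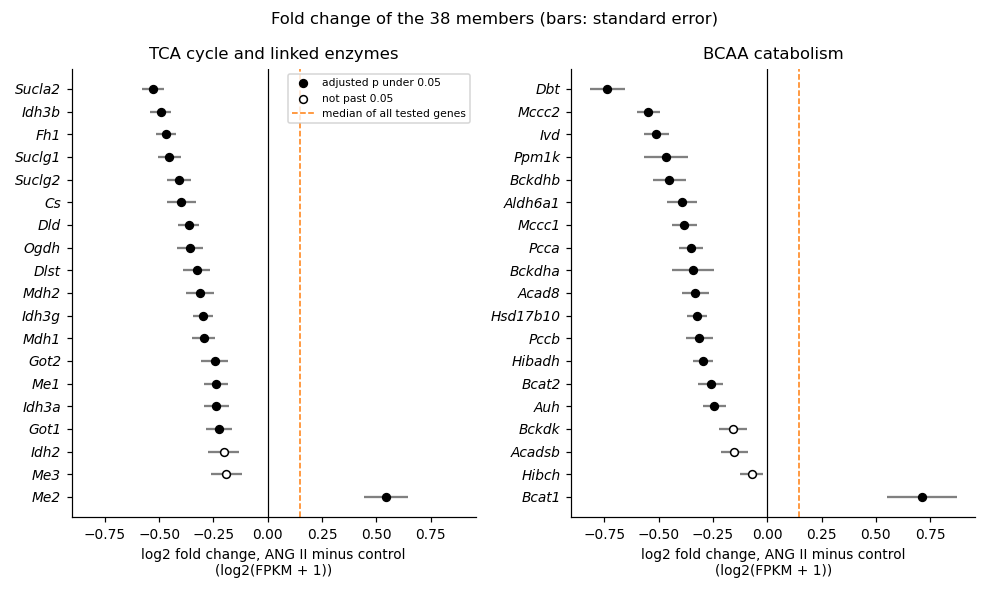
Log2 fold change of each of the 38 members on the log2(FPKM + 1) scale, ANG II minus control, in the TCA cycle (left) and BCAA catabolism (right). Bars are standard errors from limma, filled points passed an adjusted p-value of 0.05, open points did not, and the dashed line is the median of all genes tested, at 0.15. With the libraries as deposited, all members but Me2 and Bcat1 lie left of 0, and 5 members are open points.

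The libraries held 14456035 to 16565335 fragments, as read from the steps of the FPKM values, and the shallowest value of a member rested on 14 fragments, in Bcat1. Mitochondrially encoded transcripts took 26.5 ± 0.303% of the fragments in the control hearts and 20.0 ± 1.25% in ANG II (SD, n = 4 per group). The RNA protocol in the labels names CRC cells, whereas the tissue label is left ventricle. As a check of the tissue, all 10 cardiomyocyte markers examined were expressed. Their summed level was 52330.5 to 53260.3 FPKM in the control hearts and 39371 to 41935 FPKM in ANG II, and 7 of the 10 passed as lower, with a median log2 fold change of -0.43. All 8 fibroblast and all 8 macrophage markers passed as higher, with summed levels of 524 to 789.6 FPKM against 3355 to 4006 FPKM, and 258 to 333 FPKM against 584 to 816 FPKM. Of 5 endothelial markers 2 passed as higher (324 to 349 FPKM in the control hearts and 367 to 425 FPKM in ANG II), a share to be read beside the 28.4% of all genes tested. Erythroid markers rose too, with all 5 passing (96.8 to 487 and 581 to 2083 FPKM). The 3 atrial markers summed to 1.15 to 48.8 FPKM in the control hearts and 52.5 to 230.5 FPKM in ANG II, and 1 of them passed as higher, against the same 28.4%. Adipocyte markers summed to at most 3.17 FPKM in any library, and the 3 tested by limma did not pass. The others, Lep and Ucp1, were below 0.1 FPKM throughout. Skeletal muscle markers summed to 0.383 to 1.03 FPKM in the control hearts and 1.71 to 4.34 FPKM in ANG II. Tnnt3, the only one of them tested, passed as higher (1.28, limma adjusted p = 0.00186), with Mybpc1, Myh1 and Myh4 below 0.1 FPKM throughout. The part that these shifts in other markers have in the lower levels of the enzymes was not tested.

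How far the members fell depended on the reference. Against the median of all genes, the TCA cycle median was -0.46 and the BCAA median -0.48 on the log2 scale. The 10 cardiomyocyte markers did not change alike, with log2 fold changes from -0.58 (Tnni3) to 0.053 (Ryr2) as deposited. Ryr2, Tnnt2 (-0.12) and Actc1 (-0.31) did not pass. The libraries were also rescaled to the geometric mean of these 10 markers, an alternative chosen after the data had been seen. The medians were then 0.047 and 0.016, and 3 of the 38 members passed as lower and 5 as higher. How far this depends on the markers chosen was not tested. Among all genes tested, 1.07% (208) passed as lower and 58.2% (11276) as higher on this scale, with a median log2 fold change of 0.39, which lies above both medians of the members. The 3 that were lower also by this measure were Sucla2 (-0.17, limma adjusted p = 0.0167), Mccc2 (-0.20, adjusted p = 0.0060) and Dbt (-0.38, adjusted p = 0.00313). Those that were higher were Me2, Bcat1, Bckdk, Acadsb and Hibch, with log2 fold changes of 0.85, 0.92, 0.19, 0.20 and 0.28. The other 30 members lay between -0.15 (Ivd) and 0.16 (Idh2) on this scale and did not pass in either direction, Ivd having the smallest of their adjusted p-values at 0.051 (limma). The fold changes given below are for the values as deposited.

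**Figure D2:**
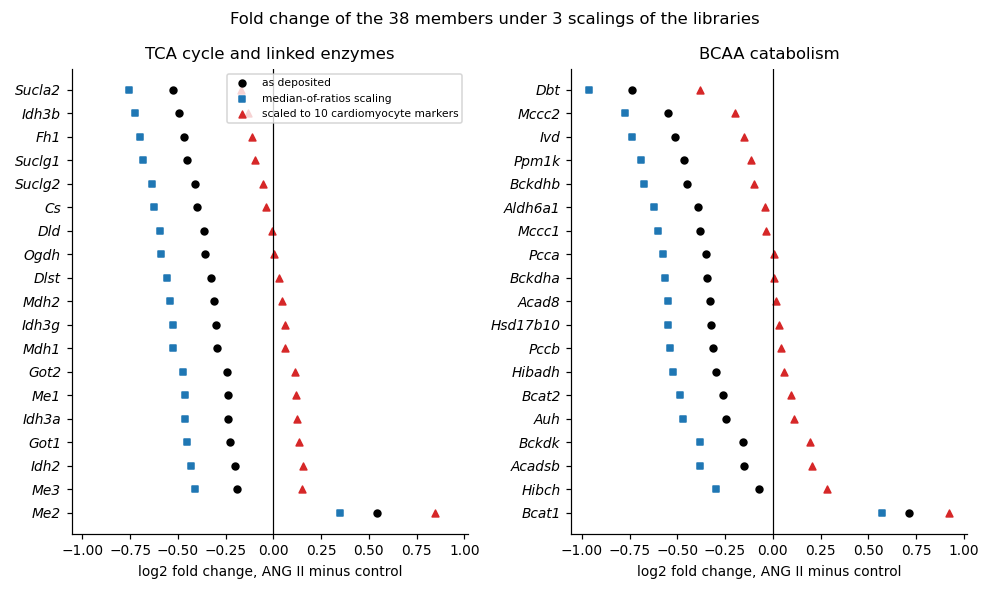
Log2 fold change of each member, ANG II minus control, with the libraries as deposited (black circles), after median-of-ratios scaling (blue squares) and after scaling to 10 cardiomyocyte markers (red triangles). Median-of-ratios scaling moved every member to the left, with a TCA cycle median of -0.54 and a BCAA median of -0.55, and scaling to the cardiomyocyte markers moved most of them close to 0.

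Citrate synthase and the isocitrate dehydrogenases carry out the opening steps of the cycle. Cs, which condenses acetyl-CoA with oxaloacetate, stood at 403, 418, 451 and 425 FPKM in control libraries 1 to 4 and at 323, 363, 303 and 301 FPKM in ANG II libraries 1 to 4. Every ANG II library was below every control library, and the mean fell by 24.0%, or -0.40 as a log2 change (SE 0.0674, limma adjusted p = 0.00156). The NAD+-linked isocitrate dehydrogenase is built from 3 kinds of subunit. All 3 passed as lower, by different amounts, where 4.91% of all genes tested did. They did not pass when scaled to the cardiomyocyte markers (0.12 for Idh3a, -0.13 for Idh3b and 0.060 for Idh3g). Idh3b, a regulatory subunit, was at 612, 596, 607 and 576 FPKM in the control hearts and 414, 416, 448 and 421 FPKM in ANG II. These groups lay far apart relative to their spread (-0.49, SE 0.0472, adjusted p = 6.98e-05 by limma). Idh3a, the catalytic subunit, was the least abundant of the 3, at 277, 286, 309 and 289.8 FPKM in the control hearts and 237, 265, 253 and 231 FPKM in ANG II. Its groups were separated by a narrower gap, between control library 1 and ANG II library 2, and its change was -0.24 as a log2 change (SE 0.0572, limma adjusted p = 0.0104). Idh3g, the other regulatory subunit, fell from 454 ± 9.43 to 369 ± 13.4 FPKM (SD, n = 4 per group; log2 fold change -0.30). Idh2, the NADP+-linked mitochondrial isoform, was the most abundant of these enzymes at 1346 ± 75.2 FPKM in the control hearts and 1171 ± 90.6 FPKM in ANG II (SD, n = 4 per group). It did not pass (log2 fold change -0.20, limma adjusted p = 0.0542), and ANG II library 4 lay above control library 4. Idh2 passed as lower with a pseudocount of 0.1 (adjusted p = 0.0477 by limma), with genes averaging at least 1 FPKM (0.0342) by voom on the recovered fragments (0.0203) and without ANG II library 4 (0.0394), while its adjusted p-value lay between 0.00199 and 0.139 over all alternatives.

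The oxoglutarate dehydrogenase complex makes succinyl-CoA, and its 3 components passed as lower, where 4.91% of all genes tested did, but not when scaled to the cardiomyocyte markers (0.0016 for Ogdh, 0.031 for Dlst and -0.0057 for Dld). Ogdh, its thiamine-dependent decarboxylase, was at 715, 764, 794 and 778 FPKM in the control hearts and 568, 635, 556 and 624 FPKM in ANG II. No ANG II library reached the control range, and the log2 fold change was -0.36 (SE 0.0615, limma adjusted p = 0.00171). Dlst, the succinyltransferase core, fell by 20.3% from a mean of 449 FPKM. Dld, the dihydrolipoamide dehydrogenase that this complex shares with BCKDH and pyruvate dehydrogenase, fell by 22.4% from 474 FPKM. The log2 fold change was -0.33 for Dlst and -0.36 for Dld.

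Among the cycle members, the succinyl-CoA ligases and fumarase had some of the largest changes. Sucla2, the subunit that makes the ligase ADP-forming, was at 781, 796, 806 and 775 FPKM in the control hearts and 529.7, 562, 578 and 524 FPKM in ANG II. The control libraries differed little from each other, and the ANG II libraries were all lower by a wide margin (-0.53, SE 0.0502, limma adjusted p = 6.78e-05). Its counterpart Suclg2, which makes the ligase GDP-forming, was 6.11-fold less abundant in control, at 133, 123, 132 and 129 FPKM against 91.2, 92.4, 102 and 104 FPKM in ANG II. Suclg1, the subunit common to both forms, was at 309.8, 311, 315 and 285 FPKM in the control hearts and 229, 232, 222 and 208 FPKM in ANG II. Neither gene overlapped between the groups, with log2 fold changes of -0.41 for Suclg2 and -0.45 for Suclg1 (adjusted p = 4.73e-04 and 2.07e-04 by limma). The value of Suclg2 is less certain, since 16.0% of the 50-base words of its transcripts recur elsewhere, mainly in Gm15163, which was itself at no more than 1.81 FPKM. Fh1, fumarase, was at 413, 433, 413 and 393 FPKM in the control hearts and 302, 294, 301 and 295 FPKM in ANG II. Its ANG II libraries were the most alike of all TCA cycle members, with a coefficient of variation of 1.39%, and its log2 fold change was -0.47 (SE 0.0448, limma adjusted p = 6.98e-05).

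Malate dehydrogenase and aspartate aminotransferase each have a cytosolic and a mitochondrial form, which together with carriers of the inner membrane serve the malate-aspartate shuttle that moves reducing equivalents into the mitochondrion. Mdh1, the cytosolic form, had the highest level of all members in control at 1476, 1395, 1429 and 1408 FPKM, against 1168, 1147, 1230.0 and 1107 FPKM in ANG II. Each ANG II library was lower than each control library (-0.30, SE 0.0547, limma adjusted p = 0.00258). Mdh2, in the mitochondrion, fell by 19.4% from 994 FPKM, with a log2 fold change of -0.31. Got1, the cytosolic aminotransferase, was at 578, 572, 638 and 595 FPKM in the control hearts and 486, 529, 482 and 544 FPKM in ANG II. The highest ANG II library was close to the lowest control library, and Got1 lost its pass without ANG II library 1 (adjusted p = 0.0518) or control library 3 (0.0509; -0.22 and adjusted p = 0.0166 by limma with all 8 libraries). Got2, the mitochondrial form, fell by 15.7% from 406 FPKM (-0.25 on the log2 scale), and 16.8% of the 50-base words in its transcripts recur in Got2-ps1 and other genes, of which Got2-ps1 was listed at 0 to 0.318 FPKM. The cytosolic and mitochondrial forms were also set against each other within each library. The ratio of Mdh1 to Mdh2 was 1.44 ± 0.070 in the control hearts and 1.46 ± 0.131 in ANG II, and that of Got1 to Got2 was 1.47 ± 0.115 and 1.5 ± 0.138 (SD, n = 4 per group; log2 differences 0.017 and 0.021, exact two-sided permutation p = 0.8286 and 0.8).

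Malic enzymes convert malate to pyruvate. With the libraries as deposited, Me1 passed as lower, Me2 as higher and Me3 in neither direction. Scaled to the cardiomyocyte markers, their log2 fold changes were 0.12, 0.85 and 0.15, and only Me2 passed. Me1, the cytosolic NADP+-linked form, was at 66.1, 75.7, 74.4 and 69.6 FPKM in the control hearts and 61.4, 60.5, 62.4 and 57.6 FPKM in ANG II. All ANG II libraries were lower, though by a gap smaller than the control spread (-0.24, SE 0.0551, limma adjusted p = 0.00867). A share of 22.9% of the 50-base words of Me1 recurs in other transcripts, mainly Gm7049, which stood at no more than 0.121 FPKM. Me3, the mitochondrial NADP+-linked form, was at 21.3, 22.6, 19.4 and 18.8 FPKM in the control hearts and 16.8, 17.9, 19.1 and 17.6 FPKM in ANG II, overlapped between the groups and did not pass (-0.19, adjusted p = 0.0662 by limma). Me2, the mitochondrial NAD+-linked form, was the only TCA cycle member that passed as higher. Its values were 4.39, 4.06, 5.0 and 3.97 FPKM in the control hearts and 7.76, 6.96, 6.44 and 6.1 FPKM in ANG II, on 126 to 250 fragments per library. The mean was 1.56-fold that of control (0.54, SE 0.10, limma adjusted p = 0.00248), and under quantile normalization its log2 fold change was 0.24 and did not pass (adjusted p = 0.112). Even in ANG II, Me2 remained the least abundant of the malic enzymes, with a mean of 6.82 FPKM beside 60.5 FPKM for Me1 and 17.8 FPKM for Me3. The ratio of Me1 to Me3 was 3.5 ± 0.328 in the control hearts and 3.4 ± 0.188 in ANG II (SD, n = 4 per group, with an exact two-sided permutation p = 0.6).

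**Figure D3:**
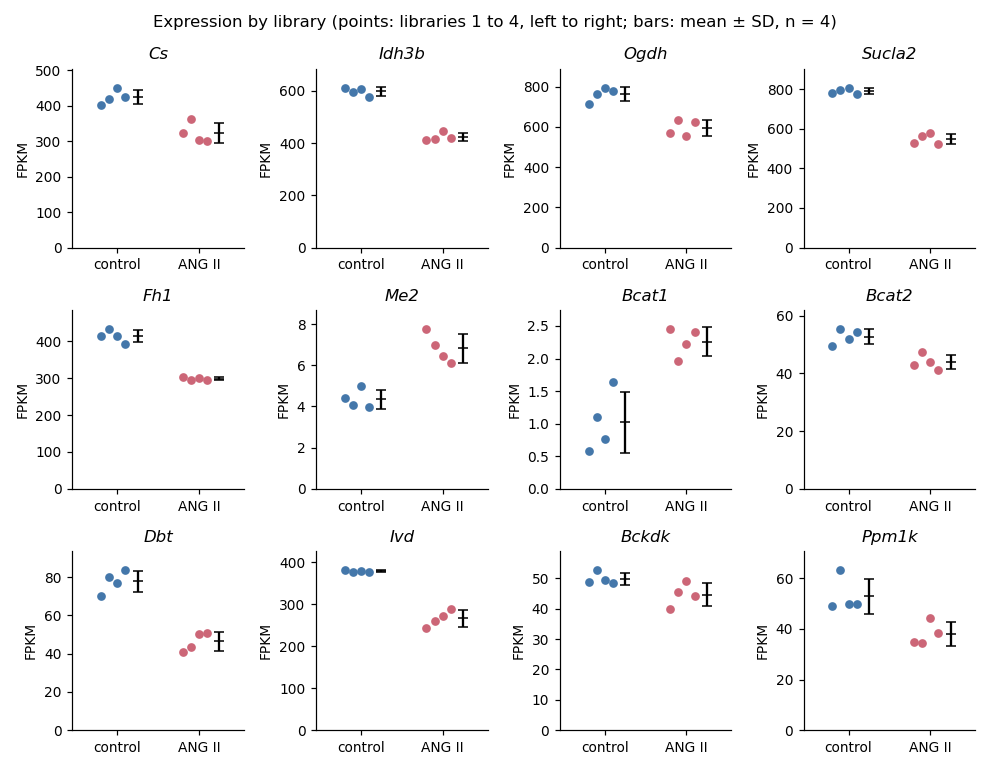
Expression of 12 members in FPKM, with 1 panel per gene and an axis that starts at 0. Points are libraries 1 to 4 from left to right in control (blue) and ANG II (red), and bars are the mean ± SD (n = 4). The groups do not overlap at 11 of the 12 genes, Me2 and Bcat1 are higher in ANG II, and Bckdk overlaps.

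The catabolism of BCAAs begins with their aminotransferases, whose 2 isoforms moved in opposite directions. Bcat2, the mitochondrial isoform that does this work in muscle, was at 49.5, 55.4, 51.8 and 54.2 FPKM in the control hearts and 42.9, 47.3, 44.0 and 41.3 FPKM in ANG II. The ANG II libraries were all lower (-0.26, SE 0.0575, limma adjusted p = 0.0067), and 15.9% of the exon length of Bcat2 is covered by 0610005C13Rik on the opposite strand, which reached at most 1.45 FPKM. Bcat1, the cytosolic isoform that is known from brain and from growing cells, had the lowest level of all members, at 0.581, 1.11, 0.76 and 1.65 FPKM in the control hearts and 2.45, 1.96, 2.22 and 2.4 FPKM in ANG II. Its control libraries varied widely, with library 4 close to the ANG II range, and each value rested on 14 to 64 fragments. Bcat1 passed as higher (0.71, SE 0.16, limma adjusted p = 0.00714), which is 2.2-fold by the means, but not under quantile normalization (0.44, adjusted p = 0.0945). Fibroblast and macrophage markers rose in the same libraries, as given above, and their part in the change of Bcat1 was not tested. In FPKM, Bcat2 was 51.5-fold more abundant than Bcat1 in control and 19.4-fold in ANG II. Within each library the ratio of Bcat1 to Bcat2 was 0.0117, 0.020, 0.0147 and 0.0304 in the control hearts and 0.0572, 0.0414, 0.0504 and 0.0582 in ANG II. All 4 ANG II libraries lay above all controls, a difference of 0.97 on the log2 scale with 1 FPKM added to each gene (exact two-sided permutation p = 0.0286, the smallest possible for 4 against 4, and 0.1 when adjusted over the 7 ratios examined).

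The BCKDH complex irreversibly decarboxylates the ketoacids of all 3 BCAAs. Dbt, its transacylase core, had the largest decrease of all 38 members, from 70.3, 80.4, 76.9 and 83.7 FPKM in control to 41.1, 43.4, 50.5 and 50.6 FPKM in ANG II. The highest ANG II library was well below the lowest control library. The mean fell by 40.3%, or -0.74 as a log2 change (SE 0.0816, limma adjusted p = 1.5e-04). Bckdhb, the β subunit of the decarboxylase, was at 46.7, 42.2, 46.6 and 47.7 FPKM in the control hearts and 28.6, 34.3, 34.6 and 35.8 FPKM in ANG II, again with no overlap (-0.45, SE 0.0751, adjusted p = 0.00143 by limma). Bckdha, the α subunit, was at 32.7, 29.1, 32.1 and 32.3 FPKM in the control hearts and 20.8, 23.0, 28.5 and 27.3 FPKM in ANG II. Its ANG II libraries were the most scattered of all members, with a coefficient of variation of 14.5%, library 1 the lowest and library 3 close to control. It passed (-0.34, adjusted p = 0.0209 by limma with all 8 libraries) but not without ANG II library 2 (0.0612) or control library 1 (0.05596), 3 (0.0544) or 4 (0.0567). Bckdha is also uncertain because 61.7% of its exon length lies under B3gnt8 on the opposite strand, itself at 0.74 to 1.15 FPKM in control and 1.84 to 2.82 FPKM in ANG II, and the use of strand is not given in the sources used here. The ratio of Bckdha to Bckdhb was 0.689 ± 0.0092 in the control hearts and 0.745 ± 0.0639 in ANG II (SD, n = 4 per group, with an exact two-sided permutation p = 0.143).

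BCKDH activity is set by a kinase, which inactivates the decarboxylase, and a mitochondrial phosphatase, which restores it. The kinase Bckdk was at 48.8, 52.6, 49.4 and 48.5 FPKM in the control hearts and 39.9, 45.6, 49.0 and 44.2 FPKM in ANG II. ANG II library 3 reached into the control range, and Bckdk did not pass (-0.16, SE 0.0653, limma adjusted p = 0.0914). The phosphatase Ppm1k was at 49.0, 63.2, 49.7 and 49.8 FPKM in the control hearts and 34.6, 34.5, 44.3 and 38.6 FPKM in ANG II. Control library 2 stood apart above the other controls, and all ANG II libraries were below all controls (-0.47, SE 0.102, limma adjusted p = 0.00625, and -0.38 without control library 2). The ratio of kinase to phosphatase FPKM, which does not depend on the scaling of the libraries, was 0.996, 0.833, 0.993 and 0.973 in the control hearts and 1.15, 1.32, 1.11 and 1.15 in ANG II. The ratio of every ANG II library lay above that of every control library. The difference was 0.31 on the log2 scale (exact two-sided permutation p = 0.0286, the smallest possible, and 0.1 adjusted over the 7 ratios), and it lay between 0.25 and 0.34 with any 1 library left out. The ratio of Suclg2 to Sucla2, the last of the 7, was 0.164 ± 0.0065 in the control hearts and 0.178 ± 0.0147 in ANG II (SD, n = 4 per group, with an exact two-sided permutation p = 0.0857, adjusted p = 0.2).

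**Figure D4:**
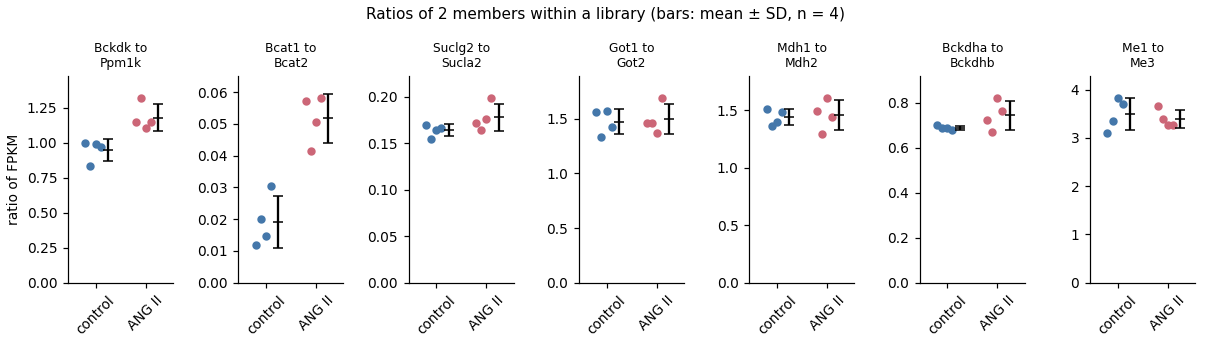
Ratio of the FPKM of 2 members within each library, with 1 panel per ratio and an axis that starts at 0. Points are libraries 1 to 4 of control (blue) and ANG II (red), and bars are the mean ± SD (n = 4). The groups are fully separated for Bckdk to Ppm1k and for Bcat1 to Bcat2, and overlap in the other 5 panels.

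After BCKDH the 3 amino acids part. In the leucine branch all 4 members passed as lower, where 4.91% of all genes tested did, and 1 of them (Mccc2) also passed as lower when scaled to the cardiomyocyte markers. Ivd, isovaleryl-CoA dehydrogenase, was the most abundant BCAA member, at 380.4, 376, 379 and 376 FPKM in the control hearts and 243, 259, 273 and 289 FPKM in ANG II. The control libraries were nearly identical, with a coefficient of variation of 0.549%, and the ANG II libraries were lower and more spread (-0.51, SE 0.0565, limma adjusted p = 1.5e-04). Methylcrotonoyl-CoA carboxylase follows Ivd in the branch and has a biotin-carrying subunit, Mccc1, and a carboxyltransferase subunit, Mccc2. Mccc2 was at 59.9, 57.4, 61.2 and 55.5 FPKM in the control hearts and 37.6, 42.1, 39.7 and 39.4 FPKM in ANG II, with no overlap (-0.55, SE 0.0532, adjusted p = 7.43e-05 by limma). Mccc1 fell from 34.5 ± 0.895 to 26.3 ± 1.57 FPKM (SD, n = 4 per group; log2 fold change -0.38). Auh, the hydratase of the next step, fell by 15.9%, with a log2 fold change of -0.24. The level of Ivd was 10.95-fold that of Mccc1 and 6.46-fold that of Mccc2 in control, and 10.1-fold and 6.69-fold in ANG II, so the order of levels within the branch was the same in both groups.

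In the isoleucine branch, Hsd17b10, a mitochondrial dehydrogenase, fell from 105 ± 1.59 to 83.7 ± 3.81 FPKM (SD, n = 4 per group; log2 fold change -0.32, limma adjusted p = 5.85e-04). Acadsb, the short/branched-chain acyl-CoA dehydrogenase before it, was at 106 ± 5.34 and 95.3 ± 7.02 FPKM, overlapped between the groups and did not pass (-0.15, adjusted p = 0.0884 by limma). In the valine branch, Acad8, Hibadh and Aldh6a1 encode the isobutyryl-CoA dehydrogenase and the dehydrogenases of 3-hydroxyisobutyrate and methylmalonate semialdehyde. All passed as lower, with log2 fold changes of -0.33, -0.30 and -0.39, where 4.91% of all genes tested did. Scaled to the cardiomyocyte markers they did not pass (0.016, 0.060 and -0.038), and Hibch of the same branch passed as higher (0.28). Of the exon length of Aldh6a1, 18.6% lies under Bbof1 on the opposite strand, which was at no more than 2.304 FPKM. Hibch, the thioesterase between them, was the member with the smallest difference, at 75.3 ± 4.24 FPKM in the control hearts and 71.5 ± 2.83 FPKM in ANG II (SD, n = 4 per group; log2 fold change -0.072, SE 0.0539, limma adjusted p = 0.348). Both subunits of propionyl-CoA carboxylase, which receives carbon from isoleucine and valine, passed as lower, where 4.91% of all genes tested did. They did not pass when scaled to the cardiomyocyte markers (0.005 for Pcca and 0.044 for Pccb). Pcca fell by 21.7% and Pccb by 19.5%, from means of 99.9 and 96.0 FPKM, with log2 fold changes of -0.35 and -0.31.

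Summed over its 19 members, the TCA cycle stood at 9954 ± 202 FPKM in the control hearts and 7922 ± 227 FPKM in ANG II, and BCAA catabolism at 1550.3 ± 17.8 and 1199 ± 59.7 FPKM (SD, n = 4 per group). The TCA cycle members were thus several times more abundant in sum. Within the ANG II group, library 1 had the lowest sum in both pathways, at 7666 FPKM for the TCA cycle and 1120.3 FPKM for BCAA catabolism, and the other libraries lay at up to 8210.1 and 1257 FPKM. Counted by member, with no test, ANG II library 1 was the lowest of the 4 for 13 of the 19 BCAA members and for 5 of the 19 TCA cycle members, and library 4 was the lowest for 10 TCA cycle members and 2 BCAA members. Library 2 was the highest for 8 TCA cycle members and library 4 for 8 BCAA members. Relative to the control mean, the median log2 difference over the members was -0.36, -0.23, -0.34 and -0.33 for the TCA cycle in ANG II libraries 1 to 4, and -0.46, -0.32, -0.31 and -0.26 for BCAA catabolism. By location in the cell, 28 of 34 mitochondrial enzymes and 3 of 4 cytosolic enzymes (Mdh1, Got1 and Me1, but not Bcat1) passed as lower, where 4.91% of all genes tested did. Scaled to the cardiomyocyte markers, 3 mitochondrial and 0 cytosolic enzymes passed as lower by limma, where 1.07% of all genes tested did.

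**Figure D5:**
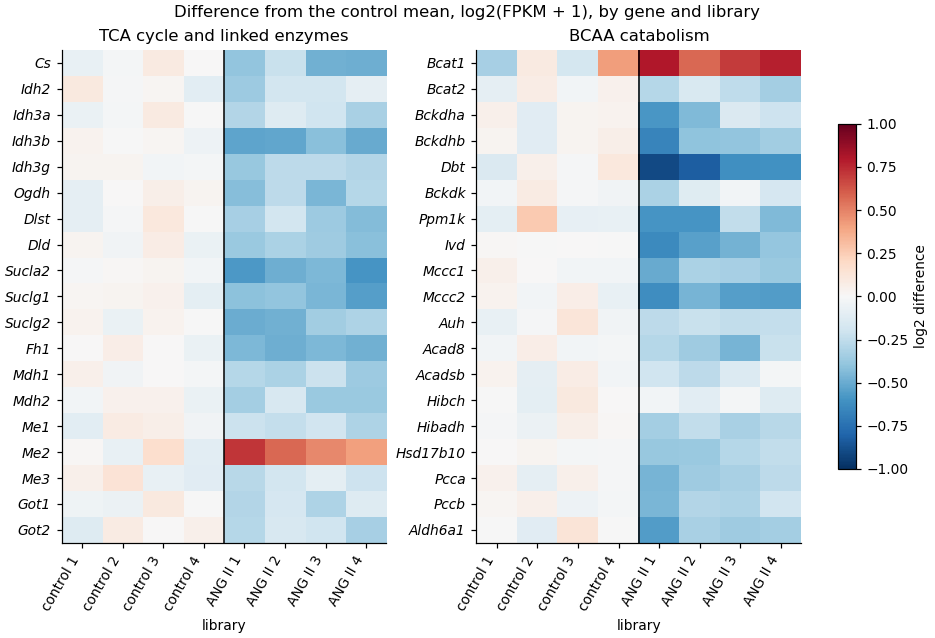
Difference of each library from the control mean on the log2(FPKM + 1) scale, for the 19 TCA cycle members (left) and the 19 BCAA members (right); blue is lower and red higher, and the scale runs from -1 to 1. With the libraries as deposited, most members are blue in the ANG II columns, Me2 and Bcat1 are red, and ANG II library 1 is the darkest column of the BCAA panel.

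Other enzymes and carriers of the same pathways were counted as a comparison. Of 19 further genes around the TCA cycle, 11 passed as lower and 4 as higher, with a median log2 fold change of -0.21, where 4.91% of all genes tested were lower and 28.4% higher. Sdha, the flavoprotein of succinate dehydrogenase, fell from 2016 ± 19.6 to 1485 ± 76.3 FPKM (SD, n = 4 per group; log2 fold change -0.44, limma adjusted p = 3.73e-04). The count of higher genes is read against that background and is not a result about this list. Those that passed as higher were Slc25a1, the mitochondrial citrate exporter (log2 fold change 0.90), Acly, the cytosolic ATP-citrate lyase (0.38), Idh1, the cytosolic isocitrate dehydrogenase (0.32), and Pck2, the mitochondrial phosphoenolpyruvate carboxykinase (0.60). Under median-of-ratios scaling Acly and Idh1 did not pass (limma adjusted p = 0.118 and 0.455), and under quantile normalization neither these nor Pck2 did (0.118, 0.180 and 0.113), which left 1 higher. Of 15 further genes around BCAA catabolism, 9 passed as lower and 3 as higher, with a median of -0.30, against the same background. Klf15, a transcription factor known to promote BCAA catabolism in the heart, fell from 23.7 ± 1.92 to 15.8 ± 2.73 FPKM (SD, n = 4 per group; -0.57, limma adjusted p = 0.00389). The 3 that passed as higher are a smaller share of the list than the 28.4% of all genes tested and are not a result about it. Slc7a5, a transporter of large neutral amino acids, rose from 3.8 ± 0.345 to 6.86 ± 0.528 FPKM, its partner Slc3a2 from 33.6 ± 3.11 to 49.3 ± 9.34 FPKM and Slc7a8 from 1.36 ± 0.392 to 2.92 ± 0.439 FPKM (SD, n = 4 per group). Slc3a2 did not pass under median-of-ratios scaling (0.30, limma adjusted p = 0.0754). Slc25a44, the carrier that brings BCAAs into the mitochondrion, did not pass (0.21, adjusted p = 0.105 by limma). Scaled to the cardiomyocyte markers, 0 of the 19 genes around the TCA cycle passed as lower and 8 as higher, and 1 of the 15 around BCAA catabolism as lower and 6 as higher, beside 1.07% lower and 58.2% higher among all genes. On that scale Klf15 did not pass (-0.23, limma adjusted p = 0.156).

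The promoters of the members were searched for short motifs, in RefSeq windows (GRCm38.p6) of 250 bases before to 50 bases after each start site and on both strands. Windows were available for 17 of the 19 TCA cycle members and 18 of the 19 BCAA members. TCAAGGTCA, the element bound by estrogen-related receptors, which are known regulators of mitochondrial genes, was found at 0 members of either pathway and at 0.466% of all genes with a window. Its shorter core AAGGTCA, which occurs within the longer element, was found at 2 TCA cycle members (Ogdh and Got1) and 0 BCAA members, against 5.38% of all genes. GCGCATGCG, the core recognised by nuclear respiratory factor 1, was found at 1 member of each pathway, Ogdh and Pccb, against 1.95% of all genes. Stretches around 3 of these matches are shown because they are the only matches that lie wholly before a start site, with the matched letters in capitals and the letters read 5′ to 3′ along the gene's strand:
Ogdh (chr11:6292513-6292557, plus strand): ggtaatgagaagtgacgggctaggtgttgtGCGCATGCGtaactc
Pccb (chr9:101034885-101034949, minus strand): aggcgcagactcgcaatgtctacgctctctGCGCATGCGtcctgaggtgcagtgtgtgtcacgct
Got1 (chr19:43524814-43524855, minus strand): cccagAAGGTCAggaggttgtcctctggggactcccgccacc
The Ogdh match lies -15 to -7 bases from one RefSeq start and -36 to -28 from another, that of Pccb at -35 to -27 and that of Got1 at -245 to -239. A match describes the letters of these windows and is not evidence of binding.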

How the data were processed

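For the 8 libraries (4 control, 4 ANG II), the authors deposited FPKM values per gene in a single table, without pooling. The submitters' processing notes name Bowtie2, HISAT and RSEM, with neither version nor role. The genome build, annotation and use of strand are not given in the sources used here. The authors used limma and edgeR, with an adjusted p-value below 0.05 and an absolute log fold change above 0.5. Their comparison is described for more samples per group than the 4 used here.

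Genes averaging 0.1 FPKM or more over the 8 libraries were tested with limma 3.58.1 (R 4.3.3; trend, no covariate) on log2(FPKM + 1), two-sided, adjusted over 19364 genes by Benjamini-Hochberg, after tests on simulated data. Such fold changes understate those of low genes. Ratios were compared by exact two-sided permutation over 70 allocations (smallest p = 0.0286). Fragments were recovered from the FPKM steps with mean transcript lengths of GENCODE M21 (GRCm38), found for 55141 genes, and 98.1 to 98.5% of values under 60 fragments fell within 0.05 of a whole number. Python 3.11.15 was used, with scipy 1.17.1. Alternatives were another pseudocount (0.1), other filters on low values, other scalings, limma without a trend, voom on the recovered fragments, the replicate number as a block, a fold threshold and each library left out. No 2 libraries of a group agreed within sampling noise (chi-square per gene of at least 7.44).

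All 38 members are named, and values of every library are given for 12 enzymes and for the 6 members of each pathway with the largest absolute log2 fold change among those that passed. The members, lists and tests were chosen with earlier results of these data known. The promoter motifs, and genes named from the comparison lists, were chosen after values had been seen.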

Additional observations from a re-analysis of the deposited data

Results flagged for a closer look

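In groups of 4 libraries, a value was singled out when its gap to the nearest other library was too large a part of the group's range by Dixon's 95% criterion, which divides the gap by the range, over 90 groups of member levels and ratios, where chance singles out about 1 in 20. Control library 2 was the highest control for Ppm1k (0.94) and Acad8 (0.98), and the lowest for Bckdha (0.831) and for the ratio of Bckdk to Ppm1k (0.872). Control library 4 was the lowest control for Suclg1 (0.835). In ANG II, library 2 was the highest for Mdh2 (0.863) and library 1 the lowest for Aldh6a1 (0.847). At Ppm1k control library 2 stood at 63.2 FPKM, against 48.99 to 49.8 FPKM in the other controls, and the log2 fold change of Ppm1k was -0.38 without that library, beside -0.47 with it. The log2 difference of the Bckdk to Ppm1k ratio was 0.25 without control library 2, beside 0.31 with it.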

How the results depend on the processing

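The counts of members lower in ANG II lay between 15 and 17 for the TCA cycle and between 14 and 16 for BCAA catabolism with any 1 library left out, and the 5 members that had not passed (Idh2, Me3, Bckdk, Acadsb and Hibch) also passed as lower under median-of-ratios scaling, quantile normalization and rescaling without mitochondrially encoded genes. With quantile normalization 0 TCA cycle and 0 BCAA members passed as higher. Voom on the recovered fragments gave 975 genes lower and 5805 higher. Replicate numbers did not pair the libraries (correlation of deviations -0.032 to 0.062 between libraries of the same number). With the replicate block 811 genes passed as lower and 4909 as higher, with 16 TCA cycle and 15 BCAA members lower, and no member changed its side of the threshold. With a log2 fold threshold of 0.5, 2981 genes passed, with 1 TCA cycle and 3 BCAA members lower. The higher share of passing genes was 85.2%, against 52.8% with median-of-ratios scaling, 45% with quantile normalization and 72.2% without mitochondrially encoded genes.

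Scaled to the cardiomyocyte markers, 11484 genes passed, 11276 of them higher, and 1 TCA cycle and 2 BCAA members were lower and 1 and 4 higher. Log2 fold changes then turned positive for Idh2 (0.16), Idh3a (0.12), Idh3g (0.060), Ogdh (0.0016), Dlst (0.031), Mdh1 (0.064), Mdh2 (0.047), Me1 (0.12), Me3 (0.15), Got1 (0.13), Got2 (0.11), Bcat2 (0.093), Bckdha (0.0049), Bckdk (0.19), Auh (0.11), Acad8 (0.016), Acadsb (0.20), Hibch (0.28), Hibadh (0.060), Hsd17b10 (0.033), Pcca (0.0050) and Pccb (0.044). The cause was not tested. The difference of the Bcat1 to Bcat2 ratio was 1.42 with a pseudocount of 0.1, and 0.89 to 1.10 with any 1 library left out.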
